A study of Mus musculus with 18 samples.

Results

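Carbonic anhydrases interconvert carbon dioxide and bicarbonate, and 6 of their genes, Car1, Car2, Car3, Car5a, Car8 and Car14, are described here in mouse liver. The 6 are among 16 carbonic anhydrase genes (Car symbols) in the deposited count tables, which hold 38924 genes for males and 23337 for females. They were chosen by symbol as a gene family after values from these same livers had been seen, and selected on levels compared between penicillin-exposed mice and controls and between the recipients of their microbiota. Those differences are therefore given as a description and support nothing. Both tables hold all 6 genes, and all 6 passed the filter on low counts in every comparison.

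Liver RNA came from 18 mice in 6 groups of 3, all collected at 8 weeks of age on a diet with 45% of calories from fat. LDP males (mice 8, 10 and 11) and LDP females (39, 52 and 54) were C57BL6J mice given low-dose penicillin (LDP) from birth, and Control males (5, 6 and 7) and Control females (29, 30 and 32) were C57BL6J mice given no antibiotic. These 4 groups were weaned at week 4 onto chow and moved to the fatty diet at week 6. LDP-microbiota recipients (2, 5 and 8) and Control-microbiota recipients (1, 3 and 7) were germ-free Swiss Webster females colonised at week 3 with microbiota of LDP or control female mice, on the same diet and with no further antibiotic. The labels name no cages, litters or donor animals, so each p-value measures the spread between these mice alone, and recipients may share a donor microbiota. Libraries held between 70336366 and 74418889 counts in males and between 17937005 and 28646168 in females. Sex and count table were the same split, so levels were not compared across them.

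The zinc-dependent members work in different places. Car1, Car2 and Car3 are cytosolic enzymes, Car2 of very high and Car3 of very low activity, and Car1 is best known from red blood cells. Car3 protein is abundant in skeletal muscle, fat and rodent liver. Car5a lies in mitochondria, where its bicarbonate feeds the urea cycle and pyruvate carboxylation. Car14 spans the plasma membrane with its active site outside the cell. Car8 is a carbonic anhydrase-related protein without catalytic activity, known in mouse brain for binding the inositol trisphosphate receptor Itpr1.

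The difference between Car8 and the active enzymes is visible in the coding sequence. Each line gives 30 bases around the codon, in capitals, at the place of the first zinc-binding histidine, 5′ to 3′ in the direction of the transcript, read from the GENCODE mouse transcripts by the longest open reading frame.
Car1: ctcactcagttcCATtttcactggggcaac
Car2: ttgatccagtttCACtttcactggggctca
Car3: cttcgccaattcCATcttcactggggctcc
Car5a: ctgaagcagtttCATttccactggggagca
Car14: gcagcccagctcCACctgcactggggtcag
Car8: ctgtatgaagttAGAtttcactggggaaga
The capital codon is number 95 in Car1, 94 in Car2 and Car3, 124 in Car5a, 109 in Car14 and 117 in Car8, counted from the start codon. It reads CAT or CAC, both of which encode histidine, in the 5 active members, and AGA, which encodes arginine, in Car8.

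3 of the 6 genes are neighbours on chromosome 3 in the GRCm38 annotation. Car1 lies at chr3:14766216-14808368 on the minus strand, Car3 at chr3:14863512-14872523 on the plus strand and Car2 at chr3:14886273-14900770 on the plus strand. With Car13, at chr3:14641727-14663002, they make a cluster of 4 genes over 259044 bases. Car14 lies elsewhere on the same chromosome, at chr3:95897768-95904691 on the minus strand, and overlaps Aph1a on the plus strand. Car5a (chr8:121916126-121944904, minus strand) and Car8 (chr4:8143362-8239041, minus strand) lie on other chromosomes, and they and Car1 also overlap other annotated genes. Strandedness of the counting is not given in the sources used here, so reads in these overlaps cannot be told apart.

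Levels were expressed as CPM, a gene's counts brought to a fixed library total, scaled between libraries by the trimmed mean of M values (TMM), and were divided by gene length only where genes are set against each other. Per kilobase, Car3 was the highest carbonic anhydrase in all 6 groups, at 1392 CPM per kb in LDP males, 1114 in Control males, 742 in LDP females, 751 in Control females, 1605 in LDP-microbiota recipients and 680.4 in Control-microbiota recipients. It made up between 83.0% of the family's summed level per kb, in Control-microbiota recipients, and 93.5%, in LDP males. Car5a, Car8 and Car14 followed in that order in every group, and Car1 and Car2 came next. Car1 stood before Car2 in males, with no overlap between mice, while Car2 stood before Car1 in the 4 female groups. In LDP males the ranges of Car5a and Car8, and those of Car14 and Car1, overlapped. The ranges of Car2 and Car1 overlapped in LDP females, Control females and LDP-microbiota recipients.

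The other 10 carbonic anhydrase genes were far lower. Their CPM summed to between 4.33 and 7.34 per liver, and Car10 had no count in any library. In Control females, for example, Car5b, a second mitochondrial enzyme, averaged 0.420 CPM per kb, against 5.51 for Car1, the lowest of the 6.

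**Figure D1:**
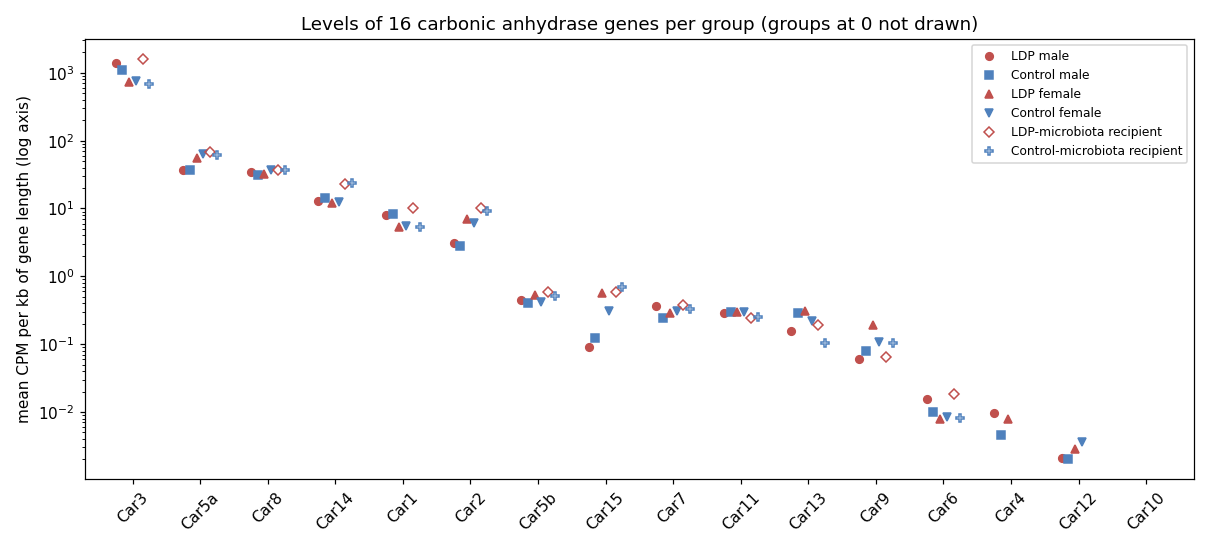
Mean level of 16 carbonic anhydrase genes in mouse liver, in CPM per kb of gene length on a log axis, with 1 marker per group of 3 mice and groups at 0 left out. Car3 lies between 680.4 and 1605 CPM per kb, and the 6 genes described here lie to the left of the other 10.

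Car3, the low-activity cytosolic enzyme, differed most in level between the recipient groups. LDP-microbiota recipients 2, 5 and 8 had 2573, 2494 and 2191 CPM, against 1399.6, 980.5 and 696 CPM in Control-microbiota recipients 1, 3 and 7. All LDP-microbiota recipients lay above all Control-microbiota recipients, and the Control-microbiota recipients spread over a wider range. The means were 2419 ± 201 CPM in LDP-microbiota recipients and 1025 ± 354 CPM in Control-microbiota recipients (SD, n = 3 each), a log2 difference of 1.23 (SE 0.23), or 2.35-fold. The counts behind these values were 45540 to 58664 per library in LDP-microbiota recipients and 14974 to 27709 in Control-microbiota recipients. Car3 took 0.232% ± 0.0240 of all counts in LDP-microbiota recipients and 0.104% ± 0.0377 in Control-microbiota recipients (SD, n = 3 each), and ranked 45 of 23337 genes by mean CPM in the first of these groups and 103 in the second.

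Car1, its cytosolic neighbour on chromosome 3, was also higher in the same recipients. It had 13.2, 12.98 and 11.9 CPM in LDP-microbiota recipients 2, 5 and 8, against 7.98, 5.35 and 6.93 CPM in Control-microbiota recipients 1, 3 and 7. The groups did not overlap, and the log2 difference was 0.90 (SE 0.17). These values rest on 237 to 318 counts per library in LDP-microbiota recipients and 119 to 158 in Control-microbiota recipients. The spread among LDP-microbiota recipients, an SD of 0.722 CPM, was below the 0.756 CPM that counting error alone gives at that depth.

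Car2, the high-activity enzyme of the same cluster, overlapped between the groups. It had 15.2, 17.2 and 22.5 CPM in LDP-microbiota recipients 2, 5 and 8, against 14.3, 15.8 and 18.7 CPM in Control-microbiota recipients 1, 3 and 7. The log2 difference was 0.16 (SE 0.17).

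The mitochondrial, membrane and inactive members overlapped between the recipient groups. Car5a had 85.9, 106 and 82.7 CPM in LDP-microbiota recipients 2, 5 and 8, against 107, 79.5 and 64.6 CPM in Control-microbiota recipients 1, 3 and 7. Car14 averaged 58.6 ± 1.44 CPM in LDP-microbiota recipients and 60.5 ± 11.6 CPM in Control-microbiota recipients (SD, n = 3 each). Car8 averaged 143 ± 15.7 CPM in LDP-microbiota recipients and 142 ± 21.8 CPM in Control-microbiota recipients (SD, n = 3 each). The log2 differences were 0.12 for Car5a, -0.06 for Car14 and 0.00 for Car8, with SEs of 0.19, 0.15 and 0.15.

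**Figure D2:**
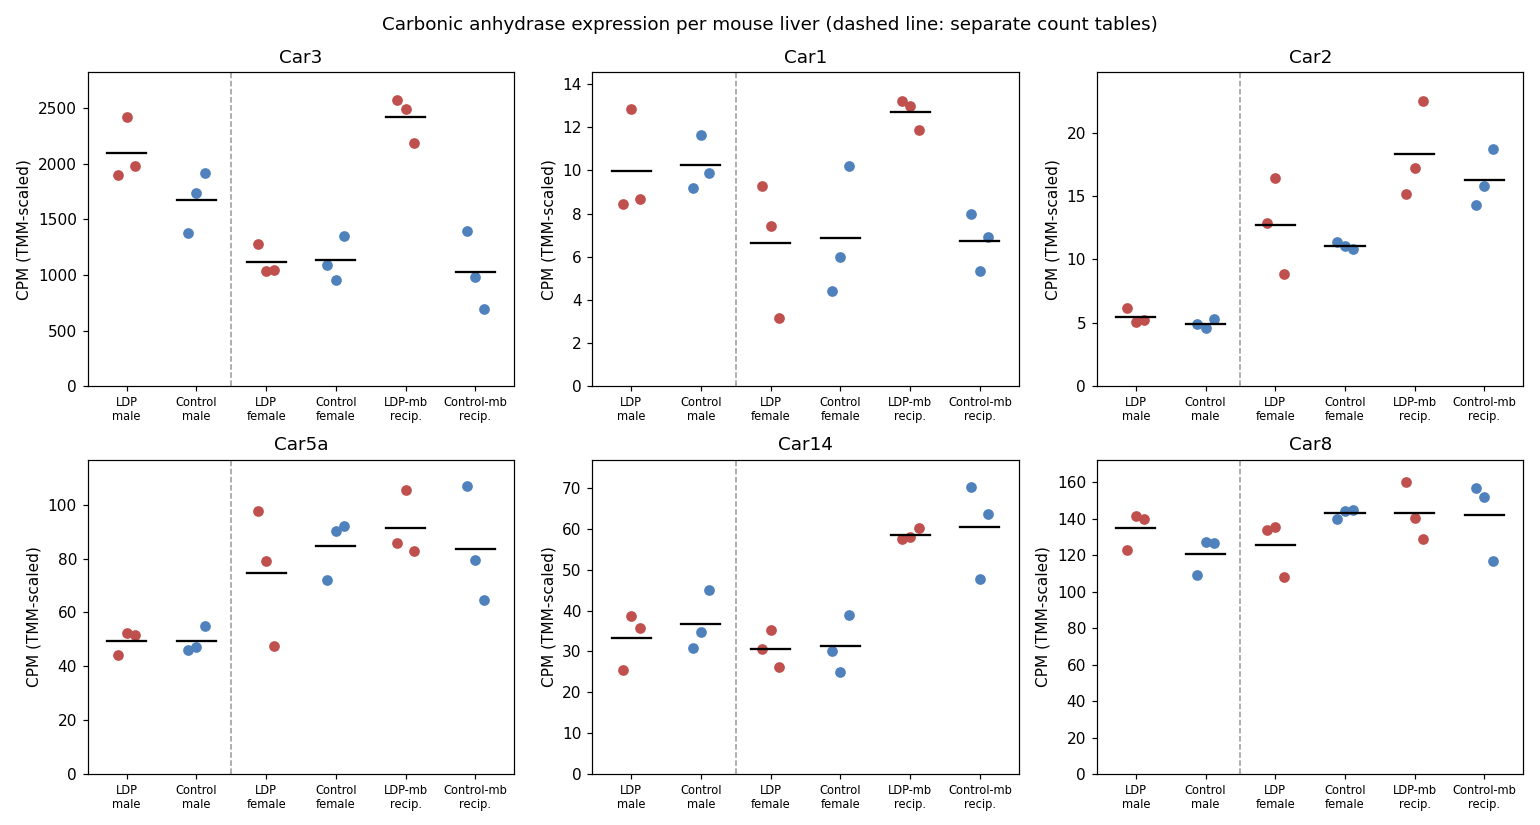
CPM of each of 6 carbonic anhydrases in each mouse (points; y axis from 0), with the mean of 3 mice as a bar, LDP or LDP-microbiota in red and controls in blue; the dashed line separates the 2 count tables, across which levels are not comparable. For Car3, the 3 LDP-microbiota recipients lie between 2191 and 2573 CPM, above the 3 Control-microbiota recipients.

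Calls over the whole table came from edgeR's quasi-likelihood test with Benjamini-Hochberg adjustment, at an adjusted p under 0.05. None of the 6 genes was called between the recipient groups, where 1 of 12780 genes tested, or 0.00782%, was called. At an unadjusted p under 0.05, 2 of the 6 (Car1 and Car3) and 5.11% of all genes passed. DESeq2, a second count test, called Car3 (adjusted p = 2.14e-05) among 28 genes, or 0.219% of all 12780 tested, and gave no adjusted p for the other 5 members. Genes without an adjusted p could not be called, and Car8 was 1 of them although it ranked 915 of 23337 genes by mean CPM in LDP-microbiota recipients. The share among genes given an adjusted p is therefore higher than 0.219%, and was not counted. Across the 7 other processing settings the log2 difference of Car3 was 1.23 to 1.25, and leaving out single mice gave 1.02, without Control-microbiota recipient 7, to 1.51, without Control-microbiota recipient 1. Both members whose groups did not overlap were higher, beside 6.72% of all genes higher and 5.05% lower without overlap (11.8% in all), and since these values chose the genes nothing is read from either count. The median log2 difference was 0.14 over the 6 genes and -0.01 over all genes tested.

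Markers of other cell types were summed beside Car3 and Car1. Of 9 skeletal muscle markers, Myh4 was at 0 in both recipient groups, and their summed level was 0.493 to 1.57 CPM in LDP-microbiota recipients and 0.758 to 1.48 CPM in Control-microbiota recipients. The 6 adipocyte markers summed to 3.40 to 33.5 CPM in LDP-microbiota recipients and 1.44 to 42.5 CPM in Control-microbiota recipients, almost all of it Adrb3, with Plin1, Lep and Retn at 0 and Adipoq at 0.0930 CPM or less. The 6 erythroid markers in the female table summed to 13.1 to 24.3 CPM in LDP-microbiota recipients and 13.3 to 34.0 CPM in Control-microbiota recipients, with Hba-a1 and Hba-a2 at 0. The 8 hepatocyte markers summed to 165940.0 to 195576 CPM in LDP-microbiota recipients and 129296 to 163609 CPM in Control-microbiota recipients, without overlap, a sum that is mostly Alb (128653 to 154291 CPM against 95506 to 126354 CPM). Without overlap, 4 of 8 were higher and 1 (Cps1) lower, beside 6.72% and 5.05% of all genes. As a list, 6 of the 8 markers were higher and 2 lower, with a median log2 difference of 0.08. None was called by edgeR (adjusted p from 0.846), and their part in the Car3 and Car1 values was not tested. In bulk RNA, fewer cells of a type and less RNA per cell cannot be told apart.

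In conventional mice given penicillin itself, Car3 levels were closer together. LDP males 8, 10 and 11 had 1978, 1896 and 2419 CPM, against 1378, 1739 and 1919 CPM in Control males 5, 6 and 7. The highest Control male lay above the lowest LDP male, and the log2 difference was 0.32 (SE 0.14). LDP females 39, 52 and 54 had 1279, 1033 and 1043 CPM, against 1087, 957 and 1352 CPM in Control females 29, 30 and 32. The female groups overlapped throughout, with a log2 difference of -0.01 (SE 0.16). The sum of hepatocyte markers, again mostly Alb, was 105126 to 113800.0 CPM in LDP males and 90477 to 101148 CPM in Control males. Of the 8 markers, Alb alone was without overlap, higher with LDP, beside 5.69% of all genes higher without overlap. As a list, 3 of the 8 were higher and 5 lower with LDP, the median log2 difference was -0.04, and their part was not tested.

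Car1 was spread widely within the conventional females. LDP females 39, 52 and 54 had 9.30, 7.45 and 3.15 CPM, against 4.41, 6.01 and 10.2 CPM in Control females 29, 30 and 32. Mouse 54 held the lowest value of the 12 female livers, from 68 counts. In males Car1 averaged 9.98 ± 2.47 CPM with LDP and 10.2 ± 1.26 CPM in Controls (SD, n = 3 each).

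Car2 was close to even in Control females and uneven in LDP females. LDP females 39, 52 and 54 had 12.9, 16.4 and 8.88 CPM, against 11.3, 11.1 and 10.8 CPM in Control females 29, 30 and 32. The SD of the Control females, 0.256 CPM, was below the 0.746 CPM that counting error gives. In males it averaged 5.49 ± 0.60 CPM with LDP and 4.94 ± 0.357 CPM in Controls (SD, n = 3 each), and the groups overlapped.

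Car5a was, like Car2, lowest in LDP female 54. LDP females 39, 52 and 54 had 97.7, 79.2 and 47.4 CPM, against 72.0, 90.1 and 92.1 CPM in Control females 29, 30 and 32. The groups overlapped, and the log2 difference was -0.18 (SE 0.25). In males the mean was 49.4 CPM in both groups, with SDs of 4.49 CPM with LDP and 4.94 CPM in Controls (n = 3 each).

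Car14 overlapped between LDP and Control mice of both sexes. It averaged 33.4 ± 6.92 CPM in LDP males and 36.8 ± 7.32 CPM in Control males, and 30.7 ± 4.57 CPM in LDP females and 31.3 ± 7.06 CPM in Control females (SD, n = 3 each).

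Car8, the inactive member, was the only one of the 6 whose groups did not overlap in a conventional comparison. LDP females 39, 52 and 54 had 134, 136 and 108 CPM, against 140.0, 144 and 145 CPM in Control females 29, 30 and 32. All LDP females lay below all Control females, by a narrow margin for mice 39 and 52, and the log2 difference was -0.18 (SE 0.11). In males the groups overlapped, with 140, 123 and 142 CPM in LDP males 8, 10 and 11 and 109, 127 and 127 CPM in Control males 5, 6 and 7.

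None of the 6 was called by edgeR in males, where 1 of 15438 genes, or 0.00648%, was, or in females, where 0 of 12914, or 0.0%, were. At an unadjusted p under 0.05, 1 member (Car3) and 5.23% of all genes passed in males, and 0 members and 4.51% of all genes (582 genes) passed in females. DESeq2 called none of the 6 in either sex, against 42 genes (0.272%) in males and 15 (0.116%) in females. In males 0 of the 6 had groups without overlap, beside 10.5% of all genes (5.69% higher, 4.84% lower). In females 1 member was lower without overlap, beside 4.44% of all genes lower and 4.7% higher (9.15% in all). The median log2 difference of the 6 was 0.08 in males and -0.04 in females, beside 0.00 over all genes tested in each sex.

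Whether LDP and control mice differed by unlike amounts was fitted as a difference of effects. For Car3, the LDP effect in females minus that in recipients was -1.26 (log2, SE 0.30), with an adjusted p of 0.788 by edgeR. For Car8, the effect in males minus that in females was 0.33 (SE 0.14), with an adjusted p of 1.0. No gene was called in either fit, 0 of 13295 for females against recipients and 0 of 12747 for males against females, or 0.0% in both. At an unadjusted p under 0.05, 790 genes (5.94%) passed in the first of these fits and 345 (2.71%) in the second. These fits use the values that chose the members, and are given as a description.

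**Figure D3:**
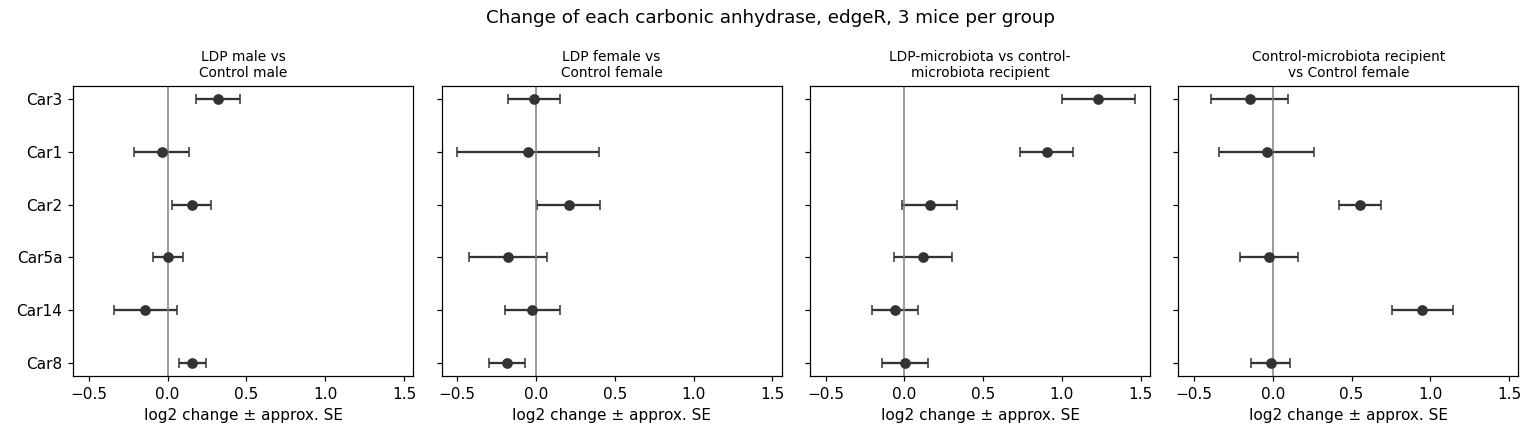
log2 change of each of 6 carbonic anhydrases by edgeR, as a point with its approximate SE as a bar, in 4 comparisons of 3 mice against 3, with the group named first over the one named second. Car3 and Car1 lie at 1.23 and 0.90 between the recipient groups, and Car14 and Car2 at 0.95 and 0.55 between Control-microbiota recipients and Control females.

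Control-microbiota recipients were also set against Control females, a contrast the genes were not selected on, although its libraries served as controls in those that were and results of these data were known. Mouse strain (Swiss Webster or C57BL6J), a germ-free early life and the experiment differ together here, and cannot be told apart. The weeks of weaning and of the move to the fatty diet are given for the conventional mice only. Time on that diet may therefore differ as well. Car14, the membrane enzyme, and Car2, the high-activity cytosolic enzyme, rose in the recipients, and the other 4 members did not pass the test.

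Car14 had 70.3, 47.7 and 63.6 CPM in Control-microbiota recipients 1, 3 and 7, against 29.99, 24.9 and 38.9 CPM in Control females 29, 30 and 32. The groups did not overlap. The difference was 0.95 on the log2 scale (SE 0.19), or 1.93-fold, with an adjusted p of 0.0206 by edgeR. It was higher in all 3 recipients, and DESeq2 gave an adjusted p of 0.000182. Under the 7 other settings it stayed called, at 0.94 to 0.96. The call was lost without Control-microbiota recipient 1 (adjusted p = 0.0631), Control female 29 (0.087) or Control female 30 (0.074) by edgeR, where the difference over all left-out mice was 0.81 to 1.13. Aph1a, the gene that overlaps Car14 on the other strand, differed by 0.22 (SE 0.12, adjusted p = 0.326 by edgeR).

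Car14 was also apart over all 12 females, as were 13.0% of 12871 genes (6.39% higher in recipients). Recipients of either microbiota had 47.7 to 70.3 CPM, and conventional females with or without penicillin had 24.9 to 38.9 CPM. The other 5 members overlapped between these 2 sets of 6 mice.

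Car2 had 14.3, 15.8 and 18.7 CPM in Control-microbiota recipients 1, 3 and 7, against 11.3, 11.1 and 10.8 CPM in Control females 29, 30 and 32. The groups did not overlap, and the difference was 0.55 on the log2 scale (SE 0.13), with an adjusted p of 0.038 by edgeR and 0.0132 by DESeq2. The call was lost when the spread was shared over 12 libraries (adjusted p = 0.108 by edgeR). It was also lost in 5 of 6 fits that left out 1 mouse, the exception being the one without Control-microbiota recipient 1 (0.0339), with differences of 0.44 to 0.64 and adjusted p-values up to 0.131 by edgeR. Markers of cholangiocytes, bile duct cells that also express Car2, summed to 17.5 to 19.4 CPM in Control-microbiota recipients and 15.5 to 19.4 CPM in Control females.

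The remaining members had small differences. Car3 averaged 1025 ± 354 CPM in Control-microbiota recipients and 1132 ± 202 CPM in Control females (SD, n = 3 each), a log2 difference of -0.15 (SE 0.25). Car1, Car5a and Car8 differed by -0.04, -0.02 and -0.01 on the log2 scale, and the adjusted p-values of these 4 genes by edgeR were 0.797 to 0.972. Of the 6 members, 2 were called, both higher, beside 3.67% of 12871 genes called higher, 4.77% called lower and 8.44% called in either direction. The same 2 had an unadjusted p under 0.05, as 22.0% of all genes did, and were called by DESeq2, which called 11.1% of all genes. They were also the members higher without overlap, beside 13.6% of all genes higher and 14.3% lower (27.9% in all). The median log2 difference of the 6 was -0.02, beside 0.01 over all genes tested.

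**Figure D4:**
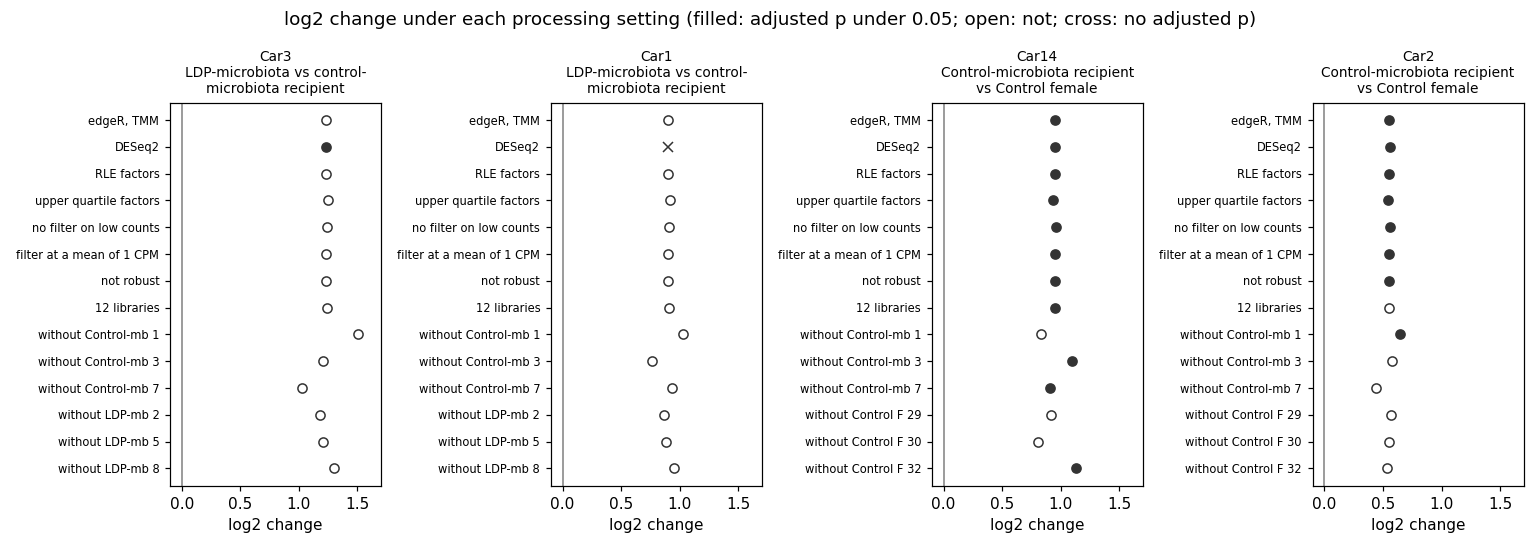
log2 change of Car3 and Car1 between recipient groups, and of Car14 and Car2 between Control-microbiota recipients and Control females, under each processing setting and with each mouse left out; filled points had an adjusted p under 0.05, open points did not, and a cross marks no adjusted p. Car3 runs between 1.02 and 1.51 and Car14 between 0.81 and 1.13, and every value shown is above 0.

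Car14 is 1 of 2 members with an entry in the RefSeq promoter table (GRCm38.p6), and its window is shown because Car14 did not overlap between recipients and conventional females. It runs from 250 bases before to 50 after the gene's start, at chr3:95904636-95904935 on the minus strand, with TATTTAA in capitals.
Car14 promoter: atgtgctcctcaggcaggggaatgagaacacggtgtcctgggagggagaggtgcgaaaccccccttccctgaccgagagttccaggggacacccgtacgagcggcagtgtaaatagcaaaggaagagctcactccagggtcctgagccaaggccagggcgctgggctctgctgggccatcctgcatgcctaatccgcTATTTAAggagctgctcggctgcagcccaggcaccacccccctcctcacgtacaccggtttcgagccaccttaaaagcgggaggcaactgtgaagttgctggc
The capitals begin 53 bases before the start. This motif was looked for after the sequence had been read, on both strands, and 4.51% of 32851 promoter windows hold it. Neither TATAAA (13.6% of windows) nor GGGCGG (35.7%) is in this window.

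The genes that carry or use bicarbonate and protons around these enzymes were counted from lists chosen with earlier results known. Of 13 bicarbonate transporters, 7 were tested between Control-microbiota recipients and Control females, and 1, the sodium bicarbonate cotransporter Slc4a4, rose. Its level was 161 ± 22.1 CPM in Control-microbiota recipients and 108 ± 8.31 CPM in Control females (SD, n = 3 each; log2 difference 0.57, adjusted p = 0.0248 by edgeR). Of 8 proton exporters and partners, 6 were tested and 1, the scaffold Slc9a3r1, fell, with 124 ± 11.98 CPM in Control-microbiota recipients and 197 ± 21.7 CPM in Control females (log2 difference -0.68, adjusted p = 0.0117 by edgeR). Of 9 bicarbonate-using enzymes, all tested, 1 fell, the fatty acid synthesis enzyme Acaca, with a log2 difference of -0.70 (adjusted p = 0.028 by edgeR). The 3 Itpr channels, of which Itpr1 is the known partner of Car8, had differences of 0.26 to 0.54 and none was called. Each of the first 3 lists thus had 1 call, beside 8.44% of all genes called (3.67% higher, 4.77% lower), which is near the background.

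None of these genes was called in the other 3 comparisons, which supplied the choice of members. The urea cycle enzyme Cps1, which uses mitochondrial bicarbonate, averaged 3541 ± 430 CPM in LDP-microbiota recipients and 5220 ± 919 CPM in Control-microbiota recipients (SD, n = 3 each), without overlap, at an adjusted p of 0.846 by edgeR. Pcx, the pyruvate carboxylase gene, averaged 799 ± 58.5 CPM in LDP-microbiota recipients and 930.5 ± 38.8 CPM in Control-microbiota recipients, also without overlap. Pccb, a propionyl-CoA carboxylase subunit, was higher without overlap, at 190 ± 17.4 CPM in LDP-microbiota recipients and 163 ± 0.990 CPM in Control-microbiota recipients (SD, n = 3 each), and was named after its values were seen. Of the 9 enzymes 5 were higher and 4 lower, and the 1 higher and 2 lower without overlap stand beside 6.72% and 5.05% of all genes. In males the anion exchanger Slc26a1 averaged 185 ± 10.5 CPM with LDP and 152 ± 13.1 CPM in Controls, and Slc4a8, another bicarbonate transporter, averaged 0.894 ± 0.0214 CPM with LDP and 1.33 ± 0.128 CPM in Controls. The first was higher and the second lower without overlap, each at an adjusted p of 0.92 by edgeR. In males, 8 bicarbonate transporters were tested, with 1 higher and 1 lower without overlap. Of 6 tested proton exporters and partners, 1 was also higher and 1 lower without overlap. Beside these stand 5.69% of all genes higher and 4.84% lower. Among the other carbonic anhydrases, Car13 averaged 0.356 ± 0.149 CPM in LDP males and 0.655 ± 0.0123 CPM in Control males (adjusted p = 0.92 by edgeR). It rests on 17 to 40 and 47 to 49 counts per library. Car15 averaged 0.724 ± 0.108 CPM in LDP females and 0.398 ± 0.0628 CPM in Control females (adjusted p = 0.999 by edgeR), from 14 to 20 and 6 to 10 counts. Counting error alone gives 0.175 and 0.141 CPM for Car15, above those SDs, and 0.0949 CPM for Car13 in Control males. Of 5 tested in females, 2 (Car15 and Car5b) were higher without overlap, beside 4.7% of all genes. Of 6 tested in males, 1 (Car13) was lower, beside 4.84%.

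Within groups, several members moved together from mouse to mouse. Each value was taken as log2(CPM + 1) minus its group mean, over 18 libraries that share kits and, within a sex, a count table. Pearson's r was 0.74 between Car1 and Car5a, 0.72 between Car5a and Car8 and 0.72 between Car3 and Car8, and -0.36 between Car2 and Car3. In the same order, the rank correlations were 0.628, 0.635, 0.662 and -0.492. Genes outside the family reached a higher r, such as Izumo4 with Car5a (0.95) and Dgat2 with Car1 (0.892). Values like these were thus also reached outside the family, though by the highest of 8115 genes, which are high by selection. How usual they are among all pairs of genes was not computed. LDP female 54 was low for Car1 (-0.78), Car5a (-0.59) and Car2 (-0.44), and also below its group mean for Car14 (-0.21), Car8 (-0.21) and Car3 (-0.093). Control-microbiota recipients 1 and 7 stood at 0.51 and -0.50 for Car3.

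**Figure D5:**
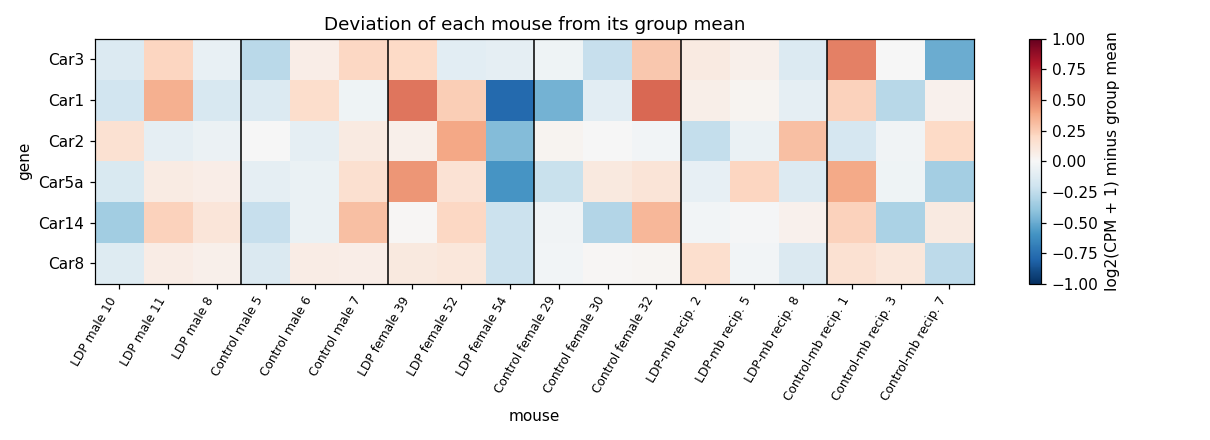
Deviation of each mouse from its group mean in log2(CPM + 1), for 6 genes (rows) and 18 mice (columns), red for higher and blue for lower, with lines between groups. LDP female 54 lies below its group mean for all 6 genes, most for Car1, Car5a and Car2, and Control-microbiota recipient 1 is high for Car3.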

How the data were processed

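RNA was isolated on RNeasy Mini columns and sequenced from TruSeq v2 libraries, per the labels' protocols. Upstream software is listed, with no roles, in the submitters' processing notes: featureCounts 1.4.3-p1, STAR 2.3.0e, DESeq and HTSeq 0.5.3p9, with genome mm10. What the authors deposited is a table of raw counts for males (Ensembl IDs, 96.6% of which matched a symbol) and another for females (symbols). Among male counts of 1 to 20, 65.2% were even, against 42.7% in females; how read pairs were counted is not given in the sources used here. No libraries were identical.

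CPM with TMM scaling and edgeR 4.0.16 (limma 3.58.1, R 4.3.3; robust quasi-likelihood; filterByExpr with a minimum count of 10 and total of 15) were computed from these counts, on the whole table, with Benjamini-Hochberg adjustment over all genes tested and a threshold of 0.05. An approximate SE is the log2 change over the square root of its F value. DESeq2 1.42.0, other scalings, other filters, a shared spread and leaving out each mouse were alternatives. The scripts were tested on simulated data. Members, lists and tests were chosen with earlier results of these data known. Genes named by rule are the 6 members, the other carbonic anhydrases, the called or smallest-p members of each list, and the 3 genes most like each member; Aph1a, Pccb and single marker genes are named beside them for their place, values or absence.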

Additional observations from a re-analysis of the deposited data

How the results depend on the processing

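No paired analysis was possible because the labels name no litter, cage or donor by which mice could be paired. The count of genes called over the whole table was 1 in males and became 42 with DESeq2, 2 without the filter on low counts, 0 when 12 libraries shared the spread, and 0 to 66 with a mouse left out (66 without LDP male 11). In females it was 0 and became 15 with DESeq2, 1 without the filter, and 0 to 1 with a mouse left out. Between recipients it was 1 and became 28 with DESeq2, 2 without the filter, 3 with 12 libraries, and 0 to 4 with a mouse left out. Between Control-microbiota recipients and Control females it was 1086, and 559 to 1669 with a mouse left out (1669 without Control-microbiota recipient 7). In that last comparison the log2 differences of members that were not called crossed 0 when a mouse was left out, running over -0.27 to 0.36 for Car1, -0.43 to 0.067 for Car3, -0.23 to 0.13 for Car5a and -0.083 to 0.11 for Car8. Differences of members also crossed 0 in the comparisons the members were selected on. In males they ran over -0.26 to 0.065 for Car1, -0.046 to 0.085 for Car5a and -0.26 to 0.026 for Car14. In females they ran over -0.38 to 0.36 for Car1, -0.021 to 0.41 for Car2, -0.13 to 0.14 for Car3, -0.42 to 0.067 for Car5a and -0.17 to 0.17 for Car14, and Car8 was -0.24 to -0.081 (-0.081 without LDP female 54). Between recipients they ran over -0.015 to 0.28 for Car2, -0.029 to 0.32 for Car5a, -0.11 to 0.073 for Car8 and -0.20 to 0.053 for Car14. The cause was not tested. DESeq2 gave no adjusted p for 5 members between recipients, and these are left out of its calls. Depth limits Car1 and Car2 most, with at most 602 counts per female library.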

Other observations

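Genes whose mouse-to-mouse deviations from the group mean were most like those of each member were found among 8115 genes over the 18 libraries, as a description. For Car3 they were Tert (Pearson's r = 0.876), Cyp4v3 (0.855) and Wdr6 (0.854), and without the 2 mice farthest from the median r was 0.721, 0.827 and 0.635. For Car5a they were Izumo4 (0.95), Aldh4a1 (0.946) and Prkaca (0.941), for Car8 Ormdl1 (0.899), Rgn (0.898) and Tmem19 (0.89), and for Car1 Dgat2 (0.892), Pecr (0.89) and Afmid (0.886). Car14 was most like Hamp2 (0.854), Ivd (0.808) and Otc (0.78), and Car2 like Cpsf4l (0.815), Mrps25 (0.799) and Ptpmt1 (0.798). The highest of 8115 values is high by selection, and the libraries share kits but differ in depth between the sexes.

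Mesothelial markers, which mark the tissue lining the liver, summed to 8.42 to 22.3 CPM in LDP females and 5.02 to 6.06 CPM in Control females, without overlap, beside the Car8 values of those mice. Of the 6 mesothelial markers, 4 were tested and all 4 were higher, 3 without overlap, beside 4.7% of all genes higher without overlap. None was called by edgeR. The 8 hepatocyte markers of these mice had 4 higher and 4 lower, 1 of them lower without overlap, beside 4.44% of all genes. These lists were chosen with earlier results known, and their part in the Car8 difference was not tested.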
